A study of Arabidopsis thaliana with 24 samples.

Results

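The transcripts described here are 58 Arabidopsis thaliana mRNAs that conserved plant microRNAs (miRNAs) are known to recognise, of 28775 genes listed in each count file. They are listed by gene identifier as known targets, and no measured value enters the list: 10 SPL genes (miR156), 8 ARF genes (3 of miR160, 2 of miR167 and 3 of the trans-acting RNA tasiARF), 5 TCP genes (miR319), MYB33 and MYB65 (miR159), 5 HD-Zip III genes (miR165 and miR166), 6 GRF genes (miR396), 5 NF-YA genes (miR169), 5 AP2-like genes (miR172), 3 NAC genes (miR164), 3 HAM genes (miR171), 3 TIR1/AFB genes (miR393), PHO2 (miR399) and 2 CSD genes (miR398). All 58 identifiers were found in the files. The study grew 2 genotypes, the mutant dxo1 and the wild type Col-0, on MS medium under long days, each with abscisic acid (ABA) and without it (NT, untreated). The labels name no dxo1 allele and no ABA dose. They give an age of 12 days and name seedlings as well as bud tissue. RNA of ABA-treated dxo1, untreated dxo1, ABA-treated Col-0 and untreated Col-0 was sequenced in 3 ways, with 2 libraries per group: GMUCT, total RNA and RNA captured through an NAD cap. DXO1 is known as an enzyme that strips NAD caps off RNA.

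Plant miRNAs are short RNAs held by the Argonaute protein AGO1, which pairs them with a nearly complementary stretch of an mRNA and cuts the mRNA opposite the middle of the pairing. The downstream piece keeps its poly(A) tail and carries a free phosphate at its start, where an intact mRNA carries a cap, and the exonuclease XRN4 is known to remove such pieces. GMUCT (genome-wide mapping of uncapped and cleaved transcripts) collects polyadenylated RNA with that free phosphate, so its libraries hold miRNA cleavage products together with decapped mRNA and other decay intermediates. Most of the targets are transcription factors that time leaf, flower and root development. TIR1, AFB2 and AFB3 are auxin receptors, CSD1 and CSD2 copper/zinc superoxide dismutases, and PHO2 an enzyme that limits phosphate uptake.

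The deposited values are read counts per whole gene. They give how many GMUCT reads a gene had, but not where in the transcript those reads began, so cleavage at a miRNA site and decay from elsewhere in the same transcript cannot be told apart in them. Fewer cells of a type and less RNA per cell cannot be told apart either.

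Sequences of the miRNAs and of their sites are shown first, because most of the transcripts compared below carry such a site. Mature miRNAs and gene models are from RefSeq on TAIR10.1, and all coordinates are of that build, written 1-based. In each miRNA the seed (bases 2 to 8 from the start) is in capitals.
miR156a-5p: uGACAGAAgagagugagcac
miR159a: uUUGGAUUgaagggagcucua
miR319c: uUGGACUGaagggagcuccuu
miR160a-5p: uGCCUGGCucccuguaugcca
miR164a: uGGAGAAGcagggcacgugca
miR165a-3p: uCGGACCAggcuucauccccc
miR166a-3p: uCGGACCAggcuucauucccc
miR171a-3p: uGAUUGAGccgcgccaauauc
miR172a: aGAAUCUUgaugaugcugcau
miR393a-5p: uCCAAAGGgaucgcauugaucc
miR165a-3p and miR166a-3p shared 1 seed, and each of the other families shown had its own.

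The best ungapped match to the family's miRNAs was then located in each annotated mRNA. It was scored as 1 per mismatch and 0.5 per G:U pair, with both doubled at miRNA bases 2 to 13. The sites below belong to transcripts whose GMUCT level is described further on, and the bases facing the miRNA seed are in capitals.
SPL3 (miR156a-5p): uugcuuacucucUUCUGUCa
NAC1 (miR164a): agcacguacccugCUUCUCCa
TCP2 (miR319c): cagggggacccuuCAGUCCAa
TCP4 (miR319c): gagggguccccuuCAGUCCAg
MYB65 (miR159a): uggagcucccuucAUUCCAAu
ARF10 (miR160a-5p): aggaauacagggaGCCAGGCa
PHV (miR165a-3p): uugggaugaagccUGGUCCGg
ATHB15 (miR166a-3p): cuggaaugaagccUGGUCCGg
TOE1 (miR172c): cagcagcaucaucAGGAUUCu
TOE2 (miR172a): augcagcaucaucAGGAUUCu
HAM1 (miR171a-3p): gauauuggcgcggCUCAAUCa
AFB3 (miR393a-5p): gaaacaaugcgaucCCUUUGGa
The SPL3 site lies in the 3′ UTR at chr2:14305878-14305897 on the plus strand, and the other sites shown lie in coding exons. NAC1 has its site at chr1:20947142-20947162 (minus strand), TCP2 at chr4:10163402-10163422 (minus), TCP4 at chr3:5063300-5063320 (plus), MYB65 at chr3:3604151-3604171 (plus) and ARF10 at chr2:12115741-12115761 (plus). The PHV site, chr1:10799330-10799445 (minus), and the ATHB15 site, chr1:19412976-19413085 (minus), each cross an exon junction, so the genomic interval holds an intron that is absent from the printed mRNA sequence. TOE1 has its site at chr2:12226233-12226253 (minus), TOE2 at chr5:24210889-24210909 (plus), HAM1 at chr2:18619128-18619148 (minus) and AFB3 at chr1:4369085-4369106 (minus). HAM1 paired with miR171a-3p over its whole length, without a mismatch.

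Of the 55 targets searched, 47 held a site with a score of 4 or less: 38 in coding sequence, 8 in the 3′ UTR and 1, PHO2, in the 5′ UTR. The 8 sites in 3′ UTRs were those of SPL3, SPL4, SPL5 and the 5 NF-YA genes. The remaining 8 targets, the 6 GRF genes and both CSD genes, scored above 4. GRF sites and that of CSD2 are known to pair with a bulge, which an ungapped search does not follow. The best CSD1 match lay in the 5′ UTR, with 3 mismatches and 0 G:U pairs, and its score of 5 exceeded the limit. No sequence is shown for these 8 targets. The tasiARF targets ARF2, ARF3 and ARF4 were not searched. Over 27444 protein-coding genes, each with 1 mRNA, sites of that score were rare: 0.1895% held one for miR156, the most of any family, and 0.0036% held one for miR398.

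**Figure D1:**
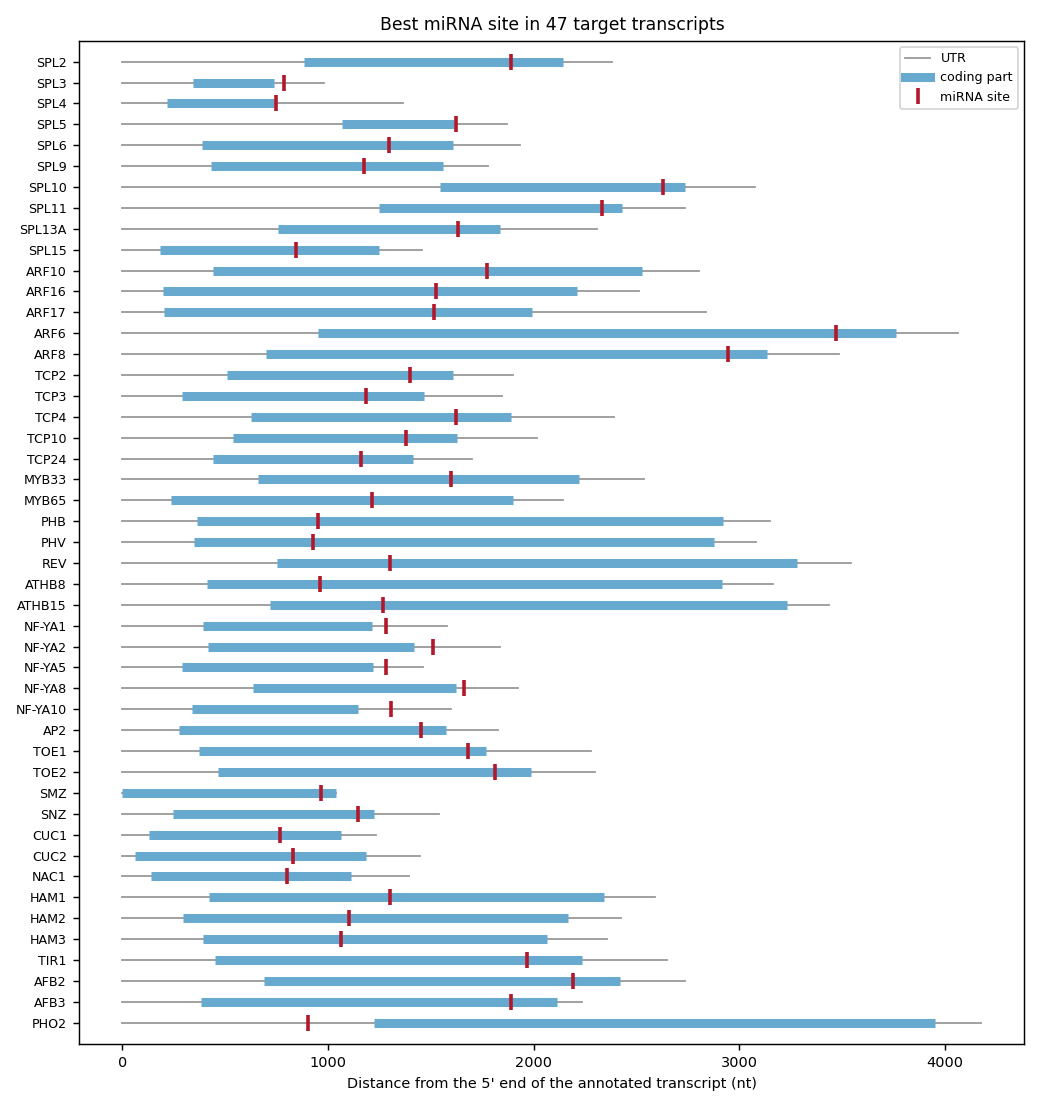
Position of the best miRNA site in 47 target mRNAs. The horizontal axis is the distance from the start of the annotated mRNA in nucleotides, grey bars are UTRs, blue bars the coding part and red ticks the site; 38 ticks fall in coding parts, 8 in 3′ UTRs and 1 in a 5′ UTR.

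GMUCT libraries held 5.79 M to 13.9 M counts in genes and 7603 to 24141 counts in the 58 targets, with 46 to 53 targets at 10 or more counts in a library. Total RNA libraries held 0.878 M to 2.03 M counts, of which 12.7% to 26.3% lay in nuclear protein-coding genes, and only 231 to 748 counts in the targets. The median target had 1.5 to 4.5 counts in a total RNA library, so differences in total RNA and in GMUCT against total RNA rest on far fewer reads than differences in GMUCT. DXO1 (AT4G17620) had 18.9 and 15.7 CPM (counts relative to the TMM-scaled size of the library) in ABA-treated dxo1, against 30.6 and 32.3 CPM in ABA-treated Col-0, a GMUCT difference of -0.87 ± 0.18 (log2 fold change ± SE; edgeR quasi-likelihood test, Benjamini-Hochberg adjusted p = 0.00133). Without ABA it had 21.5 and 18.1 CPM in dxo1, against 30.3 and 25.5 CPM in Col-0 (log2 -0.50 ± 0.17, adjusted p = 0.0439). Its reads were thus present in the mutant too, and since they are counted over the whole gene they do not test the lesion. Of 6 floral organ identity genes none but SEP3 and PI reached 10 counts in any GMUCT library, while all 6 root and all 6 leaf markers did so in all 8. In GMUCT, 54 of the 58 targets passed the filter on low counts. SPL5, NF-YA5 and CUC1 had 8 counts or fewer in every library, and SPL13A had 0 in all. SPL13A has a near-identical copy, SPL13B, and reads that map to more than 1 place were not counted, but the part of this in its 0 was not tested. Over the 54 targets tested the lowest, median and highest mean levels were 0, 16.1 and 218 CPM in ABA-treated dxo1, 0.134, 18 and 272 CPM in untreated dxo1, 0.678, 13.8 and 218 CPM in ABA-treated Col-0 and 0.111, 14.8 and 283 CPM in untreated Col-0. The summed level of the targets was 1487 and 1486 CPM in ABA-treated dxo1, 1613 and 1599 CPM in untreated dxo1, 1352 and 1472 CPM in ABA-treated Col-0 and 1728 and 1736 CPM in untreated Col-0.

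In Col-0, ABA lowered the GMUCT level of targets from 10 of the 13 families. Of 54 targets tested, 15 fell and 5 rose, which is 37% of them, where 26.7% of all 19644 genes tested passed, 12.8% downward and 14% upward. The median log2 change was -0.25 over the 54 targets and -0.01 over all genes. NAC1, SPL3, PHV, TCP2 and MYB65 fell, and these 5 passed under every alternative tried. HAM3, CSD2, HAM1, NF-YA2 and GRF7 rose.

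SPL3 (AT2G33810), a promoter of flowering and of the adult phase, had 5.65 and 4.45 CPM in ABA-treated Col-0, against 17.7 and 23.9 CPM in untreated Col-0. The higher ABA library was below the lower untreated one by a wide margin, and the fall was 4.08-fold (log2 -2.03 ± 0.24 SE, adjusted p = 3.4e-06 by edgeR). NAC1 (AT1G56010), which acts in lateral root formation, had 30.7 and 25.9 CPM in ABA-treated Col-0 and 81.4 and 80.4 CPM in untreated Col-0 (log2 -1.51 ± 0.17, adjusted p = 1.08e-06 by edgeR). Its untreated libraries were nearly equal.

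PHV (AT1G30490), an HD-Zip III factor that sets the upper side of the leaf, had 17.5 and 20.5 CPM in ABA-treated Col-0, against 48.7 and 45.0 CPM in untreated Col-0 (log2 -1.30 ± 0.20, adjusted p = 7.33e-05 by edgeR). Of the same family, ATHB15 (log2 -0.91) and ATHB8 (-0.87) also fell, whereas PHB (0.02) and REV (-0.57) did not pass. TCP2 (AT4G18390), a repressor of cell division in the leaf margin, had 23.7 and 25 CPM in ABA-treated Col-0 and 47.8 and 55.6 CPM in untreated Col-0 (log2 -1.09 ± 0.20, adjusted p = 0.000389 by edgeR). Its relatives TCP4 (-0.90) and TCP24 (-0.63) fell, and TCP3 (-0.06) and TCP10 (-0.31) did not pass.

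MYB65 (AT3G11440), a GAMYB-like factor that miR159 keeps low outside the anther and the seed, had 5.65 and 4.65 CPM in ABA-treated Col-0, against 10.9 CPM in both untreated Col-0 libraries (log2 -1.07 ± 0.24, adjusted p = 0.00273 by edgeR). Its partner MYB33 had a log2 value of -0.56 and did not pass. The remaining falls were in ARF10 (-0.87), a repressive auxin response factor, GRF2 (-0.72), a growth factor of leaves, AP2 (-0.71) and TOE2 (-0.55), both of the APETALA2 group, the auxin receptor AFB3 (-0.56) and NF-YA8 (-1.23), a subunit of a CCAAT-binding complex.

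CSD2 (AT2G28190), the chloroplast superoxide dismutase, had 81.8 and 63.7 CPM in ABA-treated Col-0 and 44.2 and 51.7 CPM in untreated Col-0, a rise of 0.60 ± 0.17 (log2, adjusted p = 0.0111 by edgeR). HAM3 (AT4G00150), a GRAS factor of the shoot meristem, had 33.0 and 22.6 CPM in ABA-treated Col-0 and 14.3 and 15.7 CPM in untreated Col-0 (log2 0.90 ± 0.20, adjusted p = 0.00197). HAM1 rose by 0.49 and NF-YA2 by 0.82, while HAM2 (-0.23) did not pass. GRF7 had 15 counts over both ABA libraries and 2 over both untreated ones, a ratio of 14.2 with a 95% exact counting interval of 3.3 to 128.

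The number of these calls depended on single libraries. It was 9 without replicate 1 of untreated Col-0 and 8 without replicate 1 of ABA-treated Col-0, against 15 and 18 without the other replicate of each group, and 7, 7, 15 and 16 of these calls were among the 20. ARF10, ATHB15, GRF2, AFB3 and CSD2 lost their call without either of these replicates 1, and the log2 values of ARF10 ran from -1.34 to -0.51 over the alternatives. TCP24, AP2, HAM1 and NF-YA2 lost it without these or without replicate 2 of untreated Col-0, and TOE2 without any 1 of the 4 libraries. HAM3 and TCP4 lost it without replicate 1 of ABA-treated Col-0 and GRF7 without replicate 1 of untreated Col-0. ATHB8 and NF-YA8 lost it without the latter library or replicate 2 of ABA-treated Col-0. GRF7 was tested in only 2 of the fits that leave out 1 of the 4 libraries, as it missed the filter on low counts in the rest. By the DESeq2 Wald test AP2, NF-YA8, NF-YA2 and GRF7 did not pass, GRF7 at an adjusted p of 0.363. Scaled by library size alone, which moved the median of all genes to -0.14, 3 targets rose and 21 fell, and HAM1 and NF-YA2 did not pass. In the same libraries the 6 leaf markers summed to 10868 and 9657 CPM in ABA-treated Col-0, against 7590 and 8132 CPM in untreated Col-0, and the 6 root markers to 88.3 and 84.6 CPM, against 66.1 and 72.0 CPM. The 6 floral organ identity genes summed to 1.77 and 2.90 CPM in ABA-treated Col-0, with 3 and 4 of them at 0, against 6.17 and 6.57 CPM in untreated Col-0, with 1 and 2 at 0. Here and in the comparisons below, the sums do not show single markers. Of the root markers, CASP1 had 23 and 17 counts in ABA-treated Col-0, against 91 and 58 in untreated Col-0. RHD6 had 62 and 59, against 49 and 31. SEP3 gave 52 and 50 of the 71 and 59 floral counts in untreated Col-0. The part of these markers in the result was not tested.

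**Figure D2:**
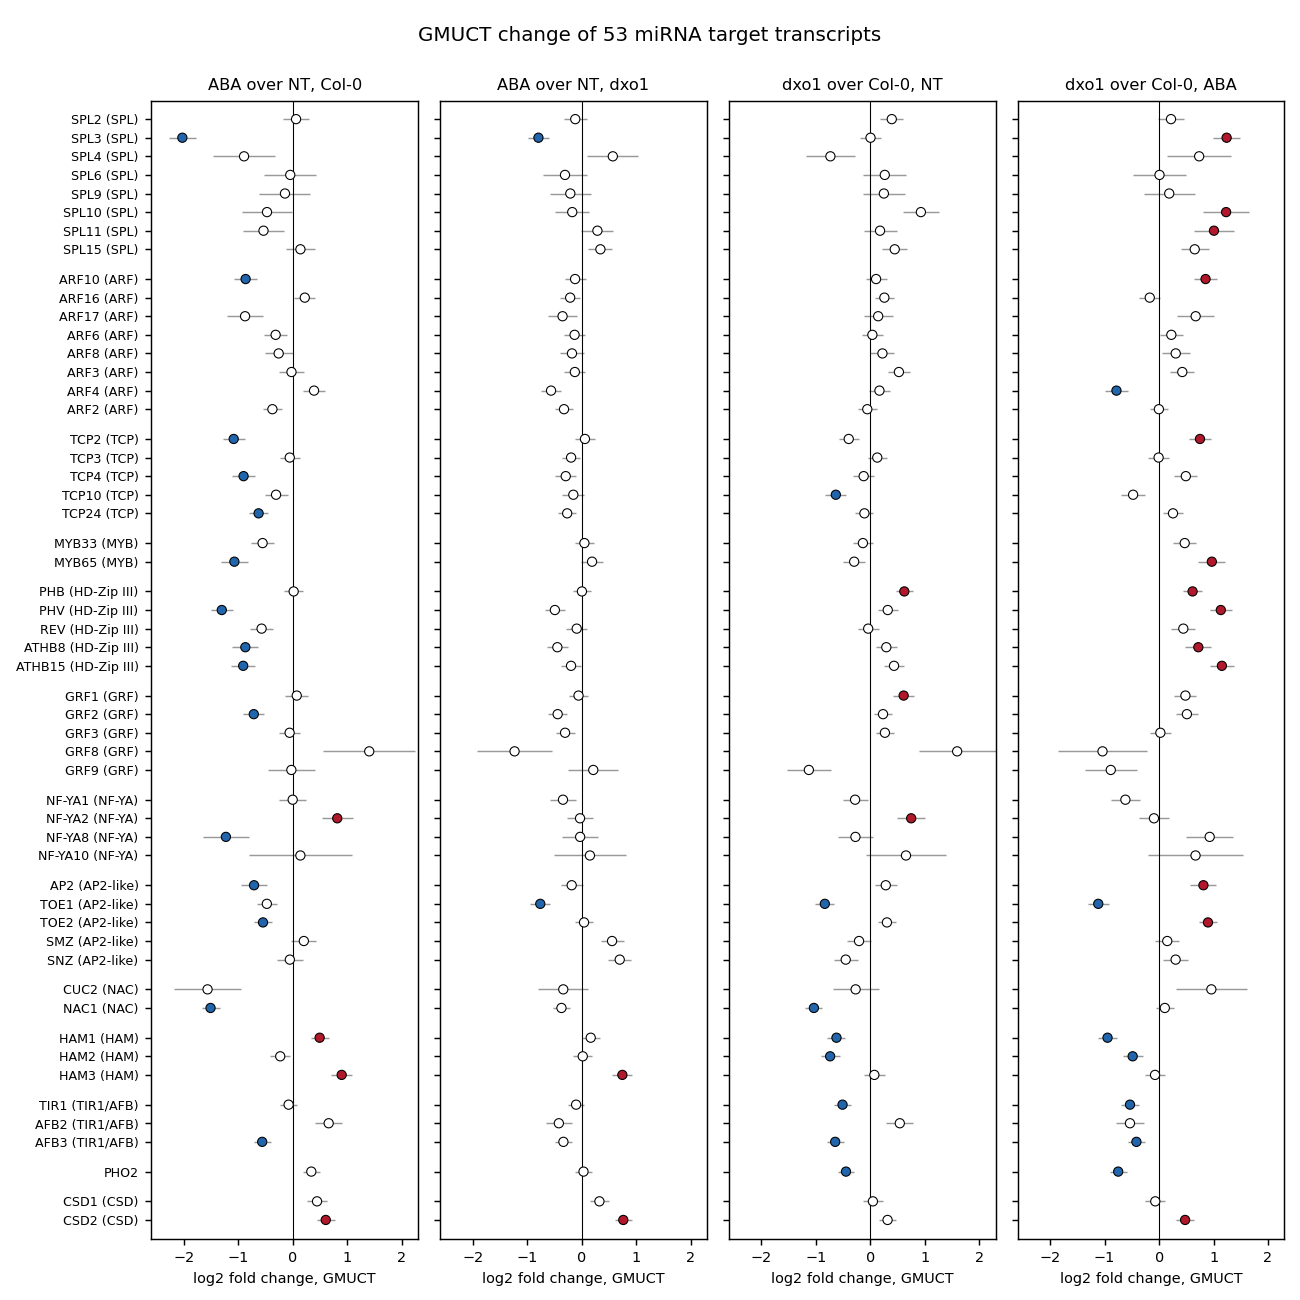
GMUCT log2 fold changes (horizontal axes, with SE) of 53 targets, grouped by family down the page, in 4 comparisons. Red points rose and blue points fell at an adjusted p under 0.05, white points did not pass; GRF7 is left out because it has few counts. HD-Zip III points are blue in the first panel (3 of 5) and red in the last (4 of 5).

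In dxo1, ABA changed 4 targets in GMUCT, 2 in each direction, which is 7.41% of the 54 where 7.68% of all genes passed, 5.15% upward and 2.53% downward. CSD2 had 103 and 100.01 CPM in ABA-treated dxo1 and 56.8 and 62.4 CPM in untreated dxo1 (log2 0.77 ± 0.16, adjusted p = 0.00377 by edgeR), and it passed under every alternative. HAM3 rose (log2 0.75 ± 0.18, adjusted p = 0.0126 by edgeR), with 28.3 and 24.7 CPM in ABA-treated dxo1 and 15.4 and 16.1 CPM in untreated dxo1. Both had also risen in Col-0. SPL3 fell to 10.9 and 13 CPM in ABA-treated dxo1, against 20.6 and 20.9 CPM in untreated dxo1 (log2 -0.79 ± 0.19, adjusted p = 0.0128). TOE1 (AT2G28550), a repressor of flowering, fell to 9.18 and 12.4 CPM, against 19.6 and 17.1 CPM in untreated dxo1 (log2 -0.76 ± 0.19, adjusted p = 0.013). HAM3 and SPL3 lost their call without either untreated replicate or without replicate 1 of ABA-treated dxo1, and TOE1 without replicate 1 of either group. 2 targets passed in each of the 3 fits without one of these libraries, but only 1 of the 4 above was among them without replicate 1 of either group and 2 without replicate 2 of untreated dxo1. Without replicate 2 of ABA-treated dxo1 5 passed, the 4 included. The 6 floral organ identity genes summed to 1.13 and 1.04 CPM in ABA-treated dxo1, with 3 and 1 of them at 0, against 4.21 and 4.88 CPM in untreated dxo1, with 1 and 1 at 0, and their part was not tested. The 6 root markers summed to 68.9 and 68.4 CPM in ABA-treated dxo1 and 70.1 and 67 CPM in untreated dxo1, and the 6 leaf markers to 7100 and 7664 CPM, against 6359 and 7138 CPM.

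The difference between the genotypes was tested directly, as the log2 change with ABA in dxo1 minus that in Col-0. Of the 54 targets 5 passed, 9.26%, where 8.92% of all genes did (4.26% with a positive and 4.67% with a negative difference), and the median difference was 0.20 over the targets and 0.00 over all genes. NAC1, TCP2, MYB65 and SPL3 had a positive difference and ARF4 a negative one. NAC1 changed by -0.37 with ABA in dxo1 and by -1.51 in Col-0, a difference of 1.14 ± 0.23 (adjusted p = 0.00341 by edgeR). TCP2 changed by 0.06 in dxo1 and -1.09 in Col-0 (difference 1.15 ± 0.27, adjusted p = 0.0106). MYB65 changed by 0.19 in dxo1 and -1.07 in Col-0 (difference 1.27 ± 0.32, adjusted p = 0.0163). SPL3 changed by -0.79 in dxo1 and -2.03 in Col-0 (difference 1.24 ± 0.32, adjusted p = 0.018).

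ARF4 (AT5G60450), an auxin response factor that tasiARF targets, went the other way. It had 9.18 and 12.1 CPM in ABA-treated dxo1, 15.2 and 16.4 CPM in untreated dxo1, 17.5 and 19.4 CPM in ABA-treated Col-0 and 14.7 and 13.4 CPM in untreated Col-0. Its difference was -0.95 ± 0.28 (adjusted p = 0.0367 by edgeR). NAC1 was the 1 target that kept its call under every alternative. ARF4 lost it under 8 of 14 alternatives, TCP2 without replicate 2 of untreated Col-0, MYB65 without either replicate of untreated Col-0 or without replicate 2 of ABA-treated Col-0, and SPL3 without replicate 2 of untreated Col-0, of ABA-treated Col-0 or of ABA-treated dxo1. Without replicate 2 of untreated Col-0 only 1 call was left, and without replicate 2 of ABA-treated Col-0 there were 3. Scaled by library size alone, 5 targets had a positive difference and 0 a negative one.

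Of the 15 targets that fell with ABA in Col-0, 12 had a negative log2 value in dxo1, 15 had a smaller absolute value there, and SPL3 alone passed in both genotypes. Since the 15 were chosen by their Col-0 values, these counts are a description.

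**Figure D3:**
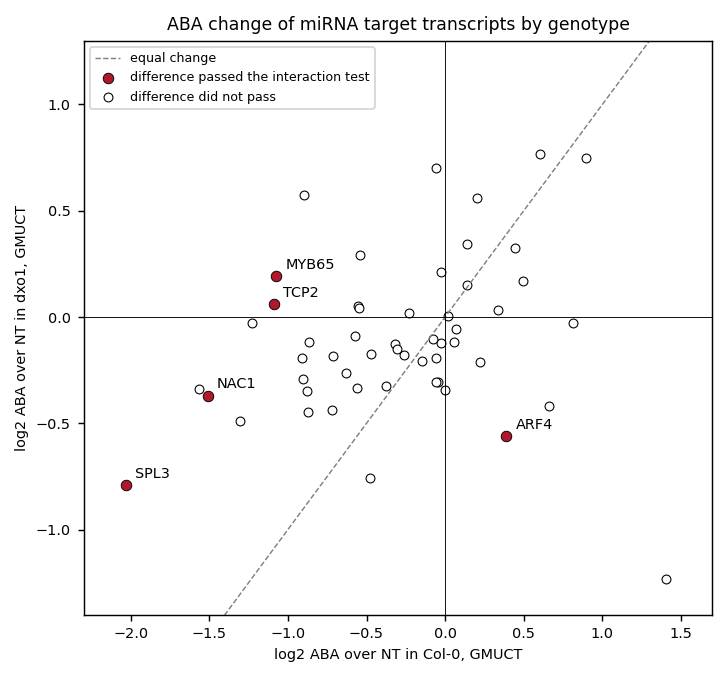
Log2 change with ABA in dxo1 (vertical axis) against that in Col-0 (horizontal axis), GMUCT, for 53 targets; the dashed line marks equal change and GRF7 is left out. The 5 labelled points passed the test of the difference: NAC1, TCP2, MYB65 and SPL3 lie above the line and ARF4 below it.

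Without ABA, dxo1 differed from Col-0 in the GMUCT level of 11 targets, 3 higher and 8 lower. That is 20.4% of the 54, where 20.5% of all genes passed, 10.1% higher and 10.4% lower, and the median log2 value was 0.12 over the targets and 0.01 over all genes. NAC1 had 36.9 and 41.9 CPM in untreated dxo1, against 81.4 and 80.4 CPM in untreated Col-0 (log2 -1.04 ± 0.15, adjusted p = 0.000129 by edgeR). TOE1 had 19.6 and 17.1 CPM in untreated dxo1, against 34.5 and 31.0 CPM in untreated Col-0 (log2 -0.84 ± 0.17, adjusted p = 0.00209 by edgeR). These 2 passed under every alternative.

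Auxin receptors and HAM factors made up 4 of the 8 lower targets. AFB3 (AT1G12820) had 141 and 153 CPM in untreated dxo1 and 243 and 218 CPM in untreated Col-0 (log2 -0.65 ± 0.15, adjusted p = 0.0058), and TIR1 was lower by a smaller amount (-0.51), whereas AFB2 had a value of 0.54 and did not pass. HAM2 (-0.74) and HAM1 (-0.62) were lower, and HAM3 (0.07) did not pass. TCP10 (-0.63) and PHO2 (-0.45) were the other 2. PHB (0.62), GRF1 (0.61) and NF-YA2 (0.75) were higher in untreated dxo1.

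The count depended on each of the 4 libraries: 5 and 3 targets passed without replicate 1 and 2 of untreated Col-0, and 6 and 5 without replicate 1 and 2 of untreated dxo1, with 4, 3, 6 and 5 of them among the 11. TIR1, TCP10 and PHO2 passed in none of these 4 fits. PHB and GRF1 lost their call without replicate 2 of untreated dxo1 or either replicate of untreated Col-0, NF-YA2 without replicate 1 of untreated dxo1 or either replicate of untreated Col-0, and HAM1 without either replicate of untreated dxo1 or replicate 2 of untreated Col-0. HAM2 lost it without replicate 2 and AFB3 without replicate 1 of untreated Col-0. Scaled by library size alone, which moved the median of all genes to 0.17, 8 targets were higher and 5 lower, and TIR1, TCP10 and PHO2 did not pass. By the DESeq2 Wald test GRF1, NF-YA2 and TCP10 did not pass, and without the filter on low counts PHO2 did not. The 6 floral organ identity genes summed to 4.21 and 4.88 CPM in untreated dxo1, with 1 and 1 of them at 0, against 6.17 and 6.57 CPM in untreated Col-0, with 1 and 2 at 0. The 6 leaf markers summed to 6359 and 7138 CPM in untreated dxo1, against 7590 and 8132 CPM in untreated Col-0, and the 6 root markers to 70.1 and 67 CPM, against 66.1 and 72.0 CPM. The part of these markers in the result was not tested.

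With ABA, dxo1 differed from Col-0 in more targets, 13 higher and 8 lower. That is 38.9% of the 54, where 30.7% of all genes passed, 14.8% higher and 15.8% lower, with a median log2 value of 0.28 over the targets and 0.01 over all genes. The higher group held 4 of the 5 HD-Zip III genes, 3 SPL genes, AP2 and TOE2, MYB65, TCP2, ARF10 and CSD2. The lower group held TOE1, HAM1, HAM2, PHO2, TIR1, AFB3, ARF4 and GRF7. Since both comparisons with ABA-treated Col-0 use the same libraries, the falls with ABA in Col-0 and the higher levels here are not independent of each other: 9 of the 13 are among the 15 targets that fell.

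PHV had 48.5 and 34.9 CPM in ABA-treated dxo1, against 17.5 and 20.5 CPM in ABA-treated Col-0 (log2 1.13 ± 0.20, adjusted p = 0.000335 by edgeR). ATHB15 (AT1G52150) had 23.0 and 28.8 CPM in ABA-treated dxo1, against 10.1 and 13.4 CPM in ABA-treated Col-0 (log2 1.15 ± 0.22, adjusted p = 0.000486). PHB was higher by 0.61 and ATHB8 by 0.72, and REV, at 0.44, did not pass. Among these, PHB was also higher in dxo1 without ABA.

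SPL3 had 10.9 and 13 CPM in ABA-treated dxo1 and 5.65 and 4.45 CPM in ABA-treated Col-0 (log2 1.24 ± 0.25, adjusted p = 0.00106 by edgeR). SPL10 (1.23 ± 0.43) and SPL11 (1.01 ± 0.37), 2 neighbouring paralogs with roles in leaf and root, were higher from a low base, with 1.16 to 2.71 CPM in ABA-treated Col-0. TOE2 (AT5G60120) had 163 and 144 CPM in ABA-treated dxo1, against 77.0 and 87.9 CPM in ABA-treated Col-0 (log2 0.90 ± 0.17, adjusted p = 0.000626 by edgeR). In contrast its relative TOE1 had 9.18 and 12.4 CPM in ABA-treated dxo1 and 24.4 and 22.6 CPM in ABA-treated Col-0 (log2 -1.12 ± 0.20, adjusted p = 0.00028). The 2 genes carry miR172 sites that share the bases facing the seed, as printed above, and moved in opposite directions between the genotypes.

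HAM1 (AT2G45160) had 35.6 and 43.9 CPM in ABA-treated dxo1, against 83.4 and 70.1 CPM in ABA-treated Col-0 (log2 -0.95 ± 0.17, adjusted p = 0.000309 by edgeR). PHO2 (AT2G33770) had 57.9 and 53 CPM in ABA-treated dxo1 and 90.1 and 96.6 CPM in ABA-treated Col-0 (log2 -0.75 ± 0.16, adjusted p = 0.0013 by edgeR). TIR1 (-0.54) and AFB3 (-0.42) were lower as they were without ABA, and HAM2 (-0.49) passed at an adjusted p that rounds to the threshold. GRF7 had 0 counts in both ABA-treated dxo1 libraries and 8 and 7 in ABA-treated Col-0, a ratio of 0 with a 95% exact counting interval of 0 to 0.155. Of the 8 targets lower without ABA and the 8 lower with it, 6 were lower in both (TOE1, HAM1, HAM2, AFB3, TIR1 and PHO2). Of the 3 and 13 higher ones PHB was higher in both. The share of all genes that passed in both comparisons was not computed, so this overlap is a description and not a trait of the targets.

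TOE1, HAM1, PHV, ATHB15, TOE2, SPL3, PHO2 and MYB65 passed under every alternative. In each of the 4 fits that leave out 1 library 16 targets passed, but not the same ones: 14 and 15 of the 21 were among them without replicate 1 and 2 of ABA-treated dxo1, and 13 and 12 without replicate 1 and 2 of ABA-treated Col-0. In the same order 12 were higher and 4 lower, 8 and 8, 9 and 7, and 12 and 4. SPL11 and HAM2 passed in none of those fits, ATHB8 lost its call without either replicate of ABA-treated Col-0 or without replicate 2 of ABA-treated dxo1, and ARF10 without replicate 1 of ABA-treated Col-0. Replicate 1 of ABA-treated dxo1 was needed for the calls of ARF4, TCP2, TIR1, AFB3 and CSD2, and replicate 2 for those of AP2, SPL10 and CSD2. Replicate 1 of ABA-treated Col-0 was needed for TCP2, AP2 and AFB3, and replicate 2 for PHB, TIR1, CSD2, SPL10 and AFB3. Scaled by library size alone, which moved the median of all genes to 0.28, 23 targets were higher and 4 lower, and ARF4, TIR1, AFB3 and HAM2 did not pass. By the DESeq2 Wald test SPL10, SPL11, ATHB8, HAM2 and GRF7 did not pass, GRF7 at an adjusted p of 0.106. GRF7 also missed the filter on low counts in some fits that leave out 1 library, and was tested in only 2 of them. AFB3 did not pass without the filter on low counts, nor SPL11 with a replicate block. The 6 leaf markers summed to 7100 and 7664 CPM in ABA-treated dxo1, against 10868 and 9657 CPM in ABA-treated Col-0, and the 6 root markers to 68.9 and 68.4 CPM, against 88.3 and 84.6 CPM. The 6 floral organ identity genes summed to 1.13 and 1.04 CPM in ABA-treated dxo1, with 3 and 1 of them at 0, against 1.77 and 2.90 CPM in ABA-treated Col-0, with 3 and 4 at 0. The part of these markers in the result was not tested.

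**Figure D4:**
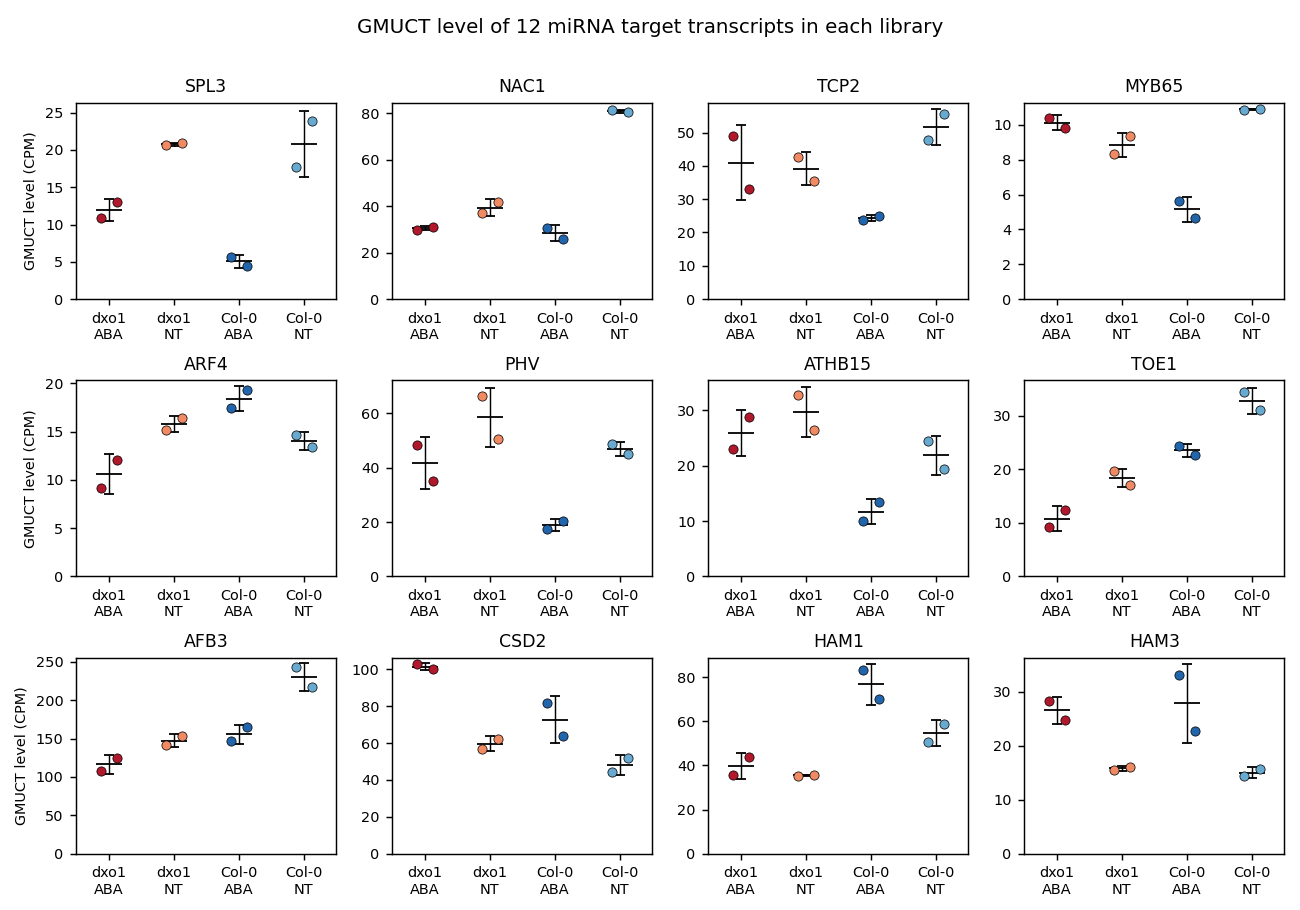
GMUCT level of 12 targets in each library (CPM, vertical axes from 0), with ABA-treated and untreated dxo1 left of ABA-treated and untreated Col-0. Points are libraries, bars the mean and SD of 2. PHV and SPL3 are lowest in ABA-treated Col-0, NAC1 is highest in untreated Col-0, and HAM1 and TOE1 are lower in dxo1 at either treatment.

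Set against total RNA, the summed share of the targets was lower in GMUCT in untreated dxo1 and in ABA-treated Col-0, and the libraries of the other 2 groups overlapped. The shares are given as CPM of nuclear protein-coding genes alone. In ABA-treated dxo1 the 58 targets had 1633 and 1679 CPM in GMUCT, against 1541 and 2008 CPM in total RNA, and the ranges overlapped. In untreated dxo1 they had 1811 and 1826 CPM in GMUCT, against 3452 and 2896 CPM in total RNA. In ABA-treated Col-0 they had 1232 and 1363 CPM in GMUCT, against 1625 and 1605 CPM in total RNA. In untreated Col-0 they had 1762 and 1757 CPM in GMUCT, against 1827 and 1490 CPM in total RNA, which again overlapped. The high total RNA value of untreated dxo1 was mostly 1 gene, ARF2 (AT5G62000), with 443 and 386 of the 748 and 628 target counts. Without ARF2, left out after its values were seen, the targets of untreated dxo1 had 1468 and 1553 CPM in GMUCT, against 1408 and 1116 CPM in total RNA. The same step gave 1366 and 1462 CPM in GMUCT of ABA-treated dxo1, against 1088 and 853 CPM in total RNA. In ABA-treated Col-0 it gave 1049 and 1144 CPM, against 1082 and 1036 CPM, and in untreated Col-0 1460 and 1484 CPM, against 979 and 858 CPM. Without ARF2 the GMUCT share was thus above the total RNA share in 3 groups and overlapped with it in ABA-treated Col-0. The ratio of a median gene was not computed on these shares, so they do not place the targets above other genes.

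Of the targets, 47 passed the filter in the joint fit of GMUCT and total RNA. That filter can be passed on the counts of either assay alone, and fewer targets passed it in total RNA by itself, as given below. A target with few total RNA counts thus entered through GMUCT, where it was high, which favours higher ratios. GMUCT over total RNA was higher for 10 and lower for 5 targets in ABA-treated dxo1, where 30.5% of all 17930 genes passed, 17.8% higher and 12.7% lower. In untreated dxo1 it was higher for 9 and lower for 7 (all genes 30.2%, with 18.2% higher and 12% lower). In ABA-treated Col-0 it was higher for 7 and lower for 7 (all genes 30%, with 18.6% higher and 11.4% lower). In untreated Col-0 it was higher for 12 and lower for 7 (all genes 27.4%, with 17.6% higher and 9.75% lower). The 47 targets had median log2 ratios of 0.61, 0.62, 0.00 and 0.53 in these 4 groups in the same order, where all genes had 0.26, 0.42, 0.36 and 0.51. With targets at 0 total RNA counts set to their bound, the medians were 0.37, 0.33, -0.02 and 0.37. In total RNA 26 to 30 of the 47 targets had fewer than 10 counts over both libraries of a group. TMM scaling across the 2 assays sets the level of these ratios: by library size alone the medians of all genes were 2.91, 2.97, 2.51 and 2.79, and 46, 44, 35 and 39 targets passed, all upward. Ratios of single targets are therefore given relative to the median of all genes of the same group, except where stated.

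AFB3, TCP4 and TOE2 were higher in GMUCT than in total RNA in all 4 groups. TOE2 had 2964 GMUCT counts and 12 total RNA counts in ABA-treated dxo1, a ratio 6.19-fold above the median of all genes (adjusted p = 1.39e-07 by edgeR). In the other groups its ratio lay 3.62-fold (untreated dxo1), 2.01-fold (ABA-treated Col-0) and 2.1-fold (untreated Col-0) above that median. AFB3 lay 1.49-fold to 2.61-fold above it, with 23 to 38 total RNA counts in a group. TCP4 (AT3G15030) lay 3.43-fold to 8.47-fold above it, but on 1 to 5 total RNA counts in a group: in untreated Col-0 the GMUCT over total RNA ratio was 5.84 with a 95% exact counting interval of 1.99 to 28.3, before the median of all genes is taken off.

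TCP2, GRF2, HAM2, HAM3 and CSD2 were higher in 3 of the 4 groups and HAM1 in 2, while ARF10, NAC1 and SPL15 were higher in 2. SPL3 had no total RNA count in either Col-0 group. Taking 3 counts over 2 libraries as the floor, it was at least 2.54-fold higher in GMUCT of untreated Col-0 than in total RNA. That is before the median of all genes is taken off. On the same terms SMZ was at least 1.65-fold and HAM3 at least 1.86-fold higher in untreated Col-0, and SPL15 at least 2.13-fold in ABA-treated dxo1 and at least 1.41-fold in untreated dxo1. The median log2 ratio of all genes was 0.51 in untreated Col-0 and 0.42 in untreated dxo1. It takes up much of the bound of SMZ and most of that of SPL15 in untreated dxo1, which thus lie little above other genes.

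ARF2 and ATHB8 were lower in GMUCT than in total RNA in all 4 groups, and ARF4 in 3. ARF2, a repressor of auxin responses, had 8145 GMUCT counts and 829 total RNA counts in untreated dxo1, a ratio 8.32-fold below the median of all genes (adjusted p = 1.48e-08 by edgeR), and lay 3.13-fold to 4.27-fold below it in the other groups. ATHB8 (AT4G32880), a vascular HD-Zip III gene, lay 3.73-fold to 5.89-fold below it, with 12 to 22 total RNA counts in a group. AFB2, ARF6, NF-YA2, PHB, SPL10 and TOE1 were lower in 2 groups. By library size alone, which moves all genes upward together, none of the lower ratios kept its call and most turned positive, so these ratios are lower only relative to other genes under TMM scaling.

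Total RNA libraries carried many of these calls. Without replicate 1 of total RNA the counts of passing targets were 8 in ABA-treated dxo1, 5 in untreated dxo1, 6 in ABA-treated Col-0 and 4 in untreated Col-0. Without replicate 2 they were 7, 10, 10 and 13. TOE2, CSD2 and HAM2 in ABA-treated dxo1, TOE2 in untreated dxo1, CSD2 and HAM1 in ABA-treated Col-0 and AFB3 in untreated Col-0 passed under every alternative.

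By family, the GMUCT share of nuclear protein-coding counts was set relative to the total RNA share. This ratio was above 1 in every group for HAM, TCP, AP2-like, TIR1/AFB and CSD and below 1 for ARF, HD-Zip III and NF-YA genes. The median of all genes is not taken off here, and it was not computed on these shares. In the joint fit that median lay above equality in every group, at log2 values of 0.26 to 0.51. A family ratio above 1 therefore does not place the family above other genes. The 95% exact counting interval took in 1 for AP2-like in ABA-treated Col-0 (1.16, 0.863 to 1.59). It also did for TIR1/AFB (1.02, 0.848 to 1.24) and CSD (1.28, 0.902 to 1.87) in untreated dxo1. So did that of NF-YA in untreated Col-0 (0.753, 0.427 to 1.47) and of HD-Zip III in ABA-treated dxo1, given below. Single genes carried several of the family ratios, as leaving out each member in turn showed, a step chosen after the ratios were seen. Without TOE2 the AP2-like ratio was 0.683 in ABA-treated dxo1, 0.547 in untreated dxo1, 0.676 in ABA-treated Col-0 and 1.1 in untreated Col-0. Without AFB3 the TIR1/AFB ratio was 0.804, 0.562, 0.993 and 0.693 in the same order, and without TIR1 it was 0.974 in untreated dxo1. Without CSD2 the CSD ratio was 0.892 in untreated dxo1 and 0.997 in ABA-treated Col-0. Without ARF2 the ARF ratio was 0.895, 0.91, 0.566 and 0.949. HAM and TCP stayed above 1, and ARF, HD-Zip III and NF-YA below 1, whichever member was left out. HAM had a ratio of 2.91 (95% exact counting interval 1.9 to 4.71) in ABA-treated dxo1, 1.8 (1.2 to 2.85) in untreated dxo1, 3.66 (2.25 to 6.41) in ABA-treated Col-0 and 4.42 (2.53 to 8.57) in untreated Col-0. HD-Zip III had 0.819 (0.668 to 1.01), 0.721 (0.594 to 0.883), 0.316 (0.253 to 0.399) and 0.652 (0.521 to 0.827) in the same order of groups. These intervals cover counting error only and not the spread between libraries. SPL had 2.57 (1.5 to 4.84) in ABA-treated dxo1 and 0.802 (0.494 to 1.39) in ABA-treated Col-0, on 13 and 17 total RNA counts.

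**Figure D5:**
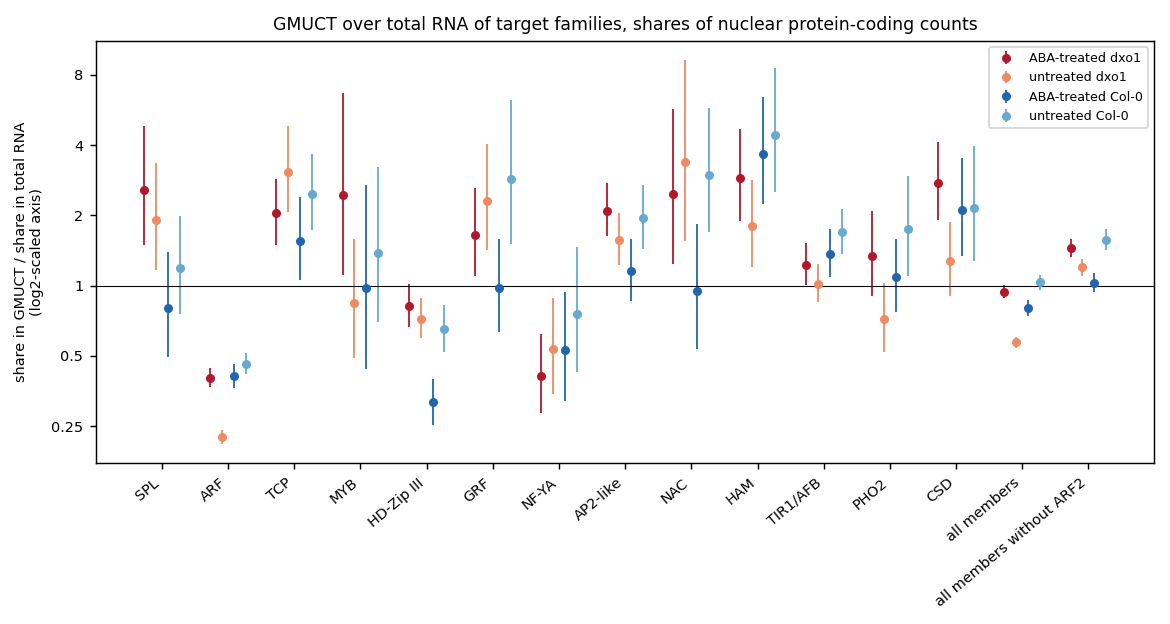
Share of nuclear protein-coding counts in GMUCT over that in total RNA (vertical axis, log2-scaled) for each target family, by group. All 58 targets are shown with and without ARF2. The line at 1 marks equal shares and not the median of all genes. Bars are 95% exact counting intervals over the summed counts of 2 libraries; HAM and TCP lie above 1 with their whole intervals, and ARF below 1, in all 4 groups, and the HD-Zip III interval of ABA-treated dxo1 reaches past 1.

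Whether the GMUCT changes exceeded those of the transcripts themselves was tested as a change of GMUCT over total RNA. No target passed for ABA in Col-0, ABA in dxo1, dxo1 without ABA or dxo1 with ABA, either by edgeR or by the DESeq2 Wald test, and the background was 0.625%, 0.139%, 0.19% and 0.563% of 17930 genes. At an unadjusted p under 0.05 there were 3, 0, 4 and 5 of 47 targets. The share of all genes at that p is not set beside these counts, so they are a description only. For dxo1 against Col-0 with ABA, TOE1 had a difference of -1.61 ± 0.55 and PHV one of 1.74 ± 0.64 (log2 ± SE; adjusted p = 0.207 and 0.248 by edgeR). Errors of this size mean that a change of GMUCT over total RNA was not detectable at this depth for most targets, not that it was absent.

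In total RNA alone 12 targets passed the filter, and none changed in the 4 comparisons by edgeR or DESeq2 (background 0.443%, 0.725%, 0.0604% and 0.0403% of 4965 genes, in the order used above). At an unadjusted p under 0.05 there were 1, 2, 0 and 0, again without the share of all genes beside them and so a description only. ARF2 had a log2 value of -1.12 ± 0.44 for ABA in dxo1 (adjusted p = 0.353) and AFB2 of -1.16 ± 0.47 for ABA in Col-0 (adjusted p = 0.34 by edgeR).

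Other transcripts of the same pathway were counted for comparison, all in GMUCT. Over all genes 26.7% passed with ABA in Col-0 and 7.68% with ABA in dxo1. Between dxo1 and Col-0, 20.5% passed without ABA and 30.7% with it. No list below was tested against these shares. Of 22 further miRNA targets 21 were tested. With ABA in Col-0 2 of these rose and 4 fell, and with ABA in dxo1 3 rose and 1 fell. Between dxo1 and Col-0, 5 were higher and 3 lower without ABA, and 9 higher and 2 lower with it. ARPN, a plantacyanin that miR408 targets, had 43.5 and 42.6 CPM in ABA-treated Col-0, against 7.73 and 8.02 CPM in untreated Col-0. MYB101, a miR159 target related to MYB65, had 27 and 28 counts in ABA-treated Col-0, against 1 and 1 in untreated Col-0, whereas MYB65 fell and MYB33 did not pass. NAC100, a miR164 target, had 13.7 and 14.5 CPM in ABA-treated dxo1, against 3 and 3.68 CPM in ABA-treated Col-0.

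Of 20 members of the target families that lack the miRNA site, 19 were tested. With ABA in Col-0 1 rose and 5 fell, which is 31.6% of them, beside 37% of the targets, and their median log2 value was 0.10. With ABA in dxo1 0 rose and 0 fell by edgeR at an adjusted p under 0.05, and 3 passed at an unadjusted p under 0.05, which is 15.8% of them where 17.6% of all genes did. Between dxo1 and Col-0, 2 were higher and 0 lower without ABA, and 4 were higher and 3 lower with it, which is 36.8% beside 38.9% of the targets. No test of the difference between the 2 lists was made.

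Of 15 genes for miRNA and tasiRNA production and for XRN exonucleases, 0 rose and 3 fell with ABA in Col-0 and 0 rose and 1 fell with ABA in dxo1. Between dxo1 and Col-0, 2 were higher without ABA and 3 with it, and 0 were lower in both. XRN4 had 32.7 and 36.6 CPM in ABA-treated Col-0, against 69.5 and 61.9 CPM in untreated Col-0 (log2 -0.93 ± 0.18, adjusted p = 0.000606 by edgeR). These are GMUCT levels of the transcripts and do not measure the proteins.

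MIR genes make the primary transcripts from which DCL1 cuts the hairpin, which also leaves uncapped pieces. Of 68 MIR and TAS3 genes 16 were tested. With ABA in Col-0 0 rose and 7 fell, and with ABA in dxo1 1 rose and 2 fell. Between dxo1 and Col-0, 1 was higher and 7 lower without ABA, and 3 were higher and 1 lower with it. All genes passed at 26.7%, 7.68%, 20.5% and 30.7% in these 4 comparisons. Downward it was 12.8% for ABA in Col-0 and 10.4% for dxo1 without ABA. MIR398b had 6.54 and 8.52 CPM in ABA-treated Col-0, against 36.6 and 34.9 CPM in untreated Col-0 (log2 -2.25 ± 0.25, adjusted p = 1.59e-06 by edgeR), while CSD2, a miR398 target, rose. MIR159b had 9.89 and 9.87 CPM in ABA-treated Col-0, against 30.5 and 31.0 CPM in untreated Col-0 (log2 -1.63 ± 0.19, adjusted p = 3.19e-06), and MYB65, a miR159 target, fell. In the interaction 4 of the 16 passed, all positive, among them MIR159b at 1.47 ± 0.26 and MIR171c at 2.41 ± 0.44. Of all genes 8.92% passed there, 4.26% with a positive difference. Counts over a MIR gene do not measure the mature miRNA.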

How the data were processed

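The deposited files hold read counts per gene, not normalized, for 24 libraries. Per the submitters' processing notes, adapters were trimmed with cutadapt, reads aligned with STAR 2.4.2a and counted with HTSeq on TAIR10; no other version is given in the sources used here. Per the labels, reads were single-end, 50 nt and strand-specific. The labels do not say whether replicates were separate cultures, so p-values measure the spread between these samples, which may be technical.

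GMUCT libraries (8), GMUCT with total RNA (16) and total RNA (8) were each fitted in edgeR 4.0.16 (R 4.3.3): filterByExpr with a minimum count of 10, TMM, and quasi-likelihood tests of group contrasts over all genes, adjusted by the Benjamini-Hochberg method at 0.05. SEs are the size of each log2 fold change divided by its root F statistic, and levels are CPM. Rows that name no gene were left out: among GMUCT reads 23.9% to 37% were not unique and 1.99% to 3.36% lay in no feature. Gene names matched for 28009 of 28775 identifiers (97.3%), from RefSeq on TAIR10.1; the count files hold no coordinates. The fits were also run on simulated counts, drawn for every library from a pooled profile of the libraries in that fit. Such counts lack the difference in composition between GMUCT and total RNA, so they cannot test the scaling between these assays.

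The list of targets uses no measured value, but it and the comparison lists were chosen with earlier results of these data known. Any target could be named, and up to 3 called genes per other list and comparison by smallest p. Counting intervals are exact (95%), floors 3 counts, and both cover counting error only. Alternatives were DESeq2 1.42.0 size factors and Wald test, library size alone, no low-count filter, nuclear protein-coding genes alone, a replicate block and leaving out each library.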

Additional observations from a re-analysis of the deposited data

Results flagged for a closer look

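NAC1, TCP2, MYB65, SPL3 and ARF4 are listed because their GMUCT response to ABA differed between dxo1 and Col-0 by a test of the difference itself (the ABA by genotype interaction in edgeR, log2 change in dxo1 minus that in Col-0). NAC1 had a difference of 1.14, TCP2 of 1.15, MYB65 of 1.27, SPL3 of 1.24 and ARF4 of -0.95. For TCP2 and MYB65 the log2 change was 0.06 and 0.19 in dxo1, against -1.09 and -1.07 in Col-0. The 5 among 54 targets stand beside a share of 8.92% of all genes. Groups of 2 libraries do not allow a test for an outlying sample.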

How the results depend on the processing

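Counts of targets passing in GMUCT stayed within 1.5 times of the values reported under other scalings, the DESeq2 Wald test and nuclear genes alone. Without the low-count filter 8 targets passed in the interaction. Leaving out 1 library at a time gave 8 to 18 calls for ABA in Col-0, 2 to 5 for ABA in dxo1, 3 to 6 for dxo1 without ABA, 16 to 16 with ABA, 1 to 6 for the interaction, 7 to 15, 5 to 15, 6 to 14 and 4 to 16 for GMUCT over total RNA in ABA-treated dxo1, untreated dxo1, ABA-treated Col-0 and untreated Col-0, and 0 to 1 for the change of GMUCT over total RNA and for total RNA with ABA in dxo1; a lone library is then assumed to vary like the other groups. Library size alone gave 46, 44, 35 and 39 calls of GMUCT over total RNA in the same order of groups. It also made lower ratios positive: in ABA-treated dxo1 ARF2 0.97, TOE1 0.40, ATHB8 1.00, NF-YA2 1.00 and ARF4 1.39; in untreated dxo1 AFB2 1.06, ARF4 0.93, ATHB8 0.82, AP2 1.22, TOE1 1.29 and NF-YA2 0.92; in ABA-treated Col-0 ATHB15 0.20, ARF2 0.89, ARF6 0.55, REV 0.39 and PHB 0.98; in untreated Col-0 ARF2 0.72, AFB2 0.50, PHB 0.81, ARF4 0.79, ATHB8 0.64 and ARF6 1.11. That scaling moves the median of all genes by the amounts given in the report. ARF2 in total RNA, dxo1 against Col-0 with ABA, which did not pass, ran from -0.42 without replicate 2 to 1.08 without replicate 1 of ABA-treated dxo1; the cause was not tested.

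Replicate differences of groups with the same numbers correlated at -0.05 to 0.038 across genes, apart from 0.20 between ABA-treated and untreated dxo1 in GMUCT, and the labels give the numbers no meaning, so samples were not treated as paired. With a replicate block 22, 4, 11, 21 and 7 targets passed in the 5 GMUCT comparisons and 15, 16, 14 and 19 in the 4 ratios. Depth limits every statement on total RNA, where the median target had under 5 counts a library.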

Other observations

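NAD-captured libraries held 63 to 231 counts in the 58 targets, and 1 to 5 targets reached 10 counts in a library, so no target was compared there. The targets had 1489 and 1271 CPM of nuclear protein-coding genes alone in ABA-treated dxo1, 1440 and 1602 in untreated dxo1, 1901 and 1527 in ABA-treated Col-0 and 1494 and 1900.2 in untreated Col-0.

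Per length, GMUCT levels of the 51 targets with a located mRNA and enough counts spanned a wide range in untreated Col-0. AFB3 had 103.1 ± 8.01 CPM per kilobase of mRNA, NAC1 58.1 ± 0.491, TOE2 52.4 ± 3.05 and CSD2 45.5 ± 5.02 (SD, n = 2), whereas SPL10 had 0.79 and GRF7 0.065. AFB3, first in this order, exceeded NAC1 by more than the spread of either, and NAC1 and TOE2 differed by more than the SD of both. These SDs cover the libraries only. Each length is that of the annotated mRNA chosen for its site, which need not be the one expressed. Whether GMUCT counts scale with length was not tested, so the order is a description.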
